A study of Homo sapiens with 12 samples.

Results

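The telomere protection genes described here are TERF1, TERF2, TERF2IP, POT1, TINF2, ACD, TERT, RTEL1, TNKS and TNKS2. They were chosen by name as shelterin and telomere genes, and every probe annotated to them on the Illumina HumanHT-12 v4 BeadChip was taken, which gave 17 of 47322 probes. Of these, 7 probes, 1 each for 7 of the 10 genes, were detected (detection p below 0.05) on each of the 3 arrays of some group and were tested. The other 10 probes, among them every probe of TERT, RTEL1 and TNKS2, were too dim for this filter. Expression was measured in 12 samples of human cancer cell lines, 3 in each of 4 groups. The groups were TC32 with siPRKDC, TC32 with siNeg, HCT116 with siPRKDC and HCT116 with siNeg. TC32 cells come from an Ewing sarcoma, HCT116 cells from a colorectal carcinoma. siPRKDC is an siRNA against PRKDC, the gene of the catalytic subunit of the DNA-dependent protein kinase, and siNeg is the control siRNA. Both were transfected at 20 nM and RNA was taken after 48 h. Each group is thus 1 line, and the labels do not say that replicates came from separate cultures, so the spread behind each p-value may be technical.

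Shelterin is the protein complex that coats chromosome ends and keeps them from being read as DNA breaks. TRF1 (TERF1) and TRF2 (TERF2) bind the duplex telomere repeat, RAP1 (TERF2IP) binds TRF2, POT1 binds the single-stranded overhang, and TIN2 (TINF2) links TRF1 and TRF2 to TPP1 (ACD), which holds POT1 and recruits telomerase. DNA-PK, made of PRKDC and the Ku proteins, binds DNA ends during end joining and also acts at telomere ends.

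The knockdown and the lines were checked first. PRKDC's brightest probe had deposited intensities of 89.3, 87.3 and 104.2 with siPRKDC, against 147.7, 141.4 and 162.3 with siNeg in TC32. In HCT116 it read 77.3, 78.3 and 86.0 with siPRKDC, against 238.1, 236.7 and 204.4 with siNeg, so the groups lay apart in both lines (log2 change -1.41 in TC32 and -2.66 in HCT116, limma adjusted p = 7.33e-08 and 1.6e-10). The other 2 tested PRKDC probes also fell in both lines, and each was detected on at most 1 of 3 arrays with siPRKDC in either line. One fell by 0.86 in TC32 and was at least 1.59-fold lower in HCT116 (limma adjusted p = 4.01e-06 and 6.17e-05), and the other was at least 1.69-fold lower in TC32 and fell by 0.73 in HCT116 (4.66e-07 and 4.56e-05). On the brightest probe the fall was larger in HCT116. These dim probes cannot show whether that held, since with siPRKDC they were near the limit of detection in both lines. Their fitted effects did not pass the test of a difference between lines (limma adjusted p = 0.76 and 0.37). Of the Ewing sarcoma markers, NKX2-2, CD99, PRKCB, STEAP1, LIPI and FLI1 were detected on all 6 TC32 arrays, and NKX2-2 and LIPI on 0 of 6 HCT116 arrays, FLI1 on 1, PRKCB on 2, and CD99 and STEAP1 on 6. NR0B1 had no probe paired with its symbol. The epithelial markers EPCAM, CDH1, KRT8 and KRT19 were detected on 0 of 6 TC32 arrays and on all 6 HCT116 arrays. ELF3 was detected on 1 TC32 and 6 HCT116 arrays, KRT18 on 4 TC32 and 6 HCT116 arrays, and CLDN4 on 1 TC32 and 2 HCT116 arrays. Arrays detected 15396 to 16216 probes in TC32 with siPRKDC and 16324 to 16603 in TC32 with siNeg, 17101 to 18153 in HCT116 with siPRKDC and 17658 to 17740 in HCT116 with siNeg. The ribosomal RNA gene RNA28SN5, whose signal is a common sign of RNA quality and which was picked after its values were seen, rose by 3.07 and 1.69 on the log2 scale by its 2 probes in TC32 (limma adjusted p = 8.41e-12 and 1.47e-08). In HCT116 the same probes differed by 0.69 and 0.24 (adjusted p = 0.00737 and 0.32). The part of these array differences in the telomere results was not tested.

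The question of the TC32 comparison is what siPRKDC changed in the Ewing sarcoma line. Of the shelterin genes, TINF2 and TERF1 rose and ACD fell with siPRKDC in TC32, while the probes of TERF2, TERF2IP, POT1 and TNKS did not pass the test. In such bulk RNA, fewer cells of a type and less RNA per cell cannot be told apart. That is 3 of 7 tested probes, where 37.8% of all 16555 tested probes were called in this comparison, so the share of telomere probes called was near that of all probes. The siPRKDC and siNeg values of the same 3 probes did not overlap, which held for 44.7% of all probes. By direction, 2 rose against 19.1% of all probes, and 1 fell against 18.7%. The median log2 change of the 7 probes was 0.16, that of all tested probes 0.01.

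TINF2, which encodes the bridging protein of shelterin, changed most. Its intensities were 110.3, 105.8 and 111.1 in TC32 with siPRKDC, against 82.4, 80.4 and 92.5 in TC32 with siNeg. Every siPRKDC array lay above every siNeg array, and siNeg replicate 3 stood above the other two siNeg arrays. After background correction and normalization, the log2 intensity was 5.81 ± 0.10 with siPRKDC and 4.97 ± 0.34 with siNeg (SD, n = 3 each). This is a 1.79-fold rise, a log2 change of 0.84 (SE 0.13, limma adjusted p = 3.17e-05), called in 24 of 24 alternatives. Without background correction the log2 change was 0.36, and in the authors' deposited log2 values it was 0.33.

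ACD, which encodes TPP1, moved the other way. Its intensities were 109.4, 119.5 and 107.8 in TC32 with siPRKDC, against 137.5, 124.1 and 131.1 in TC32 with siNeg, and the groups did not overlap. The log2 intensity was 5.89 ± 0.14 with siPRKDC and 6.37 ± 0.07 with siNeg (SD, n = 3 each), 1.39-fold lower with siPRKDC, with a log2 change of -0.48 (SE 0.10, limma adjusted p = 5.11e-04). The fall was called in 24 of 24 alternatives, and was -0.26 without background correction and -0.25 in the authors' deposited log2 values.

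TERF1, whose protein TRF1 binds the telomere repeat and is modified by the tankyrases, rose less securely. The intensities of its detected probe were 127.4, 136.9 and 137.7 in TC32 with siPRKDC, against 123.9, 111.0 and 99.3 in TC32 with siNeg. The groups did not overlap, but siPRKDC replicate 1 lay close to siNeg replicate 1, and the siNeg arrays were spread widely. The log2 intensity was 6.37 ± 0.06 with siPRKDC and 5.91 ± 0.29 with siNeg (SD, n = 3 each), a 1.38-fold rise with a log2 change of 0.46 (SE 0.14, limma adjusted p = 0.0102). Without siNeg replicate 3 the log2 change was 0.30 and was no longer called (limma adjusted p = 0.0857), nor was it when no filter on dim probes was applied (0.0598). Without background correction the log2 change was 0.25, and in the authors' deposited log2 values 0.24. The other 2 TERF1 probes were detected on 0 of 12 arrays, so the rise rests on 1 probe.

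The remaining shelterin genes had these values in TC32. TERF2 read 97.5, 106.8 and 104.8 with siPRKDC and 101.3, 91.6 and 97.0 with siNeg (log2 change 0.16, 95% confidence interval -0.04 to 0.37, limma adjusted p = 0.203). TERF2IP read 109.1, 105.7 and 107.9 with siPRKDC and 104.3, 108.4 and 102.2 with siNeg (0.03, interval -0.19 to 0.24, limma adjusted p = 0.885). The groups overlapped for both genes. A missed threshold does not show that these genes stayed the same, and changes within the intervals are possible.

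POT1's detected probe read 92.3, 85.7 and 87.0 in TC32 with siPRKDC, against 89.3, 88.9 and 94.3 in TC32 with siNeg, which overlap (log2 change -0.17, interval -0.41 to 0.08, limma adjusted p = 0.29). TNKS, which encodes tankyrase 1, a poly(ADP-ribose) polymerase that releases TRF1 from telomeres, read 81.8, 77.7 and 83.2 with siPRKDC and 77.2, 79.4 and 73.2 with siNeg (0.21, interval -0.04 to 0.45, limma adjusted p = 0.186). TNKS passed the filter only through TC32 with siPRKDC, where 3 of 3 arrays detected it, against 2 of 3 with siNeg.

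**Figure D1:**
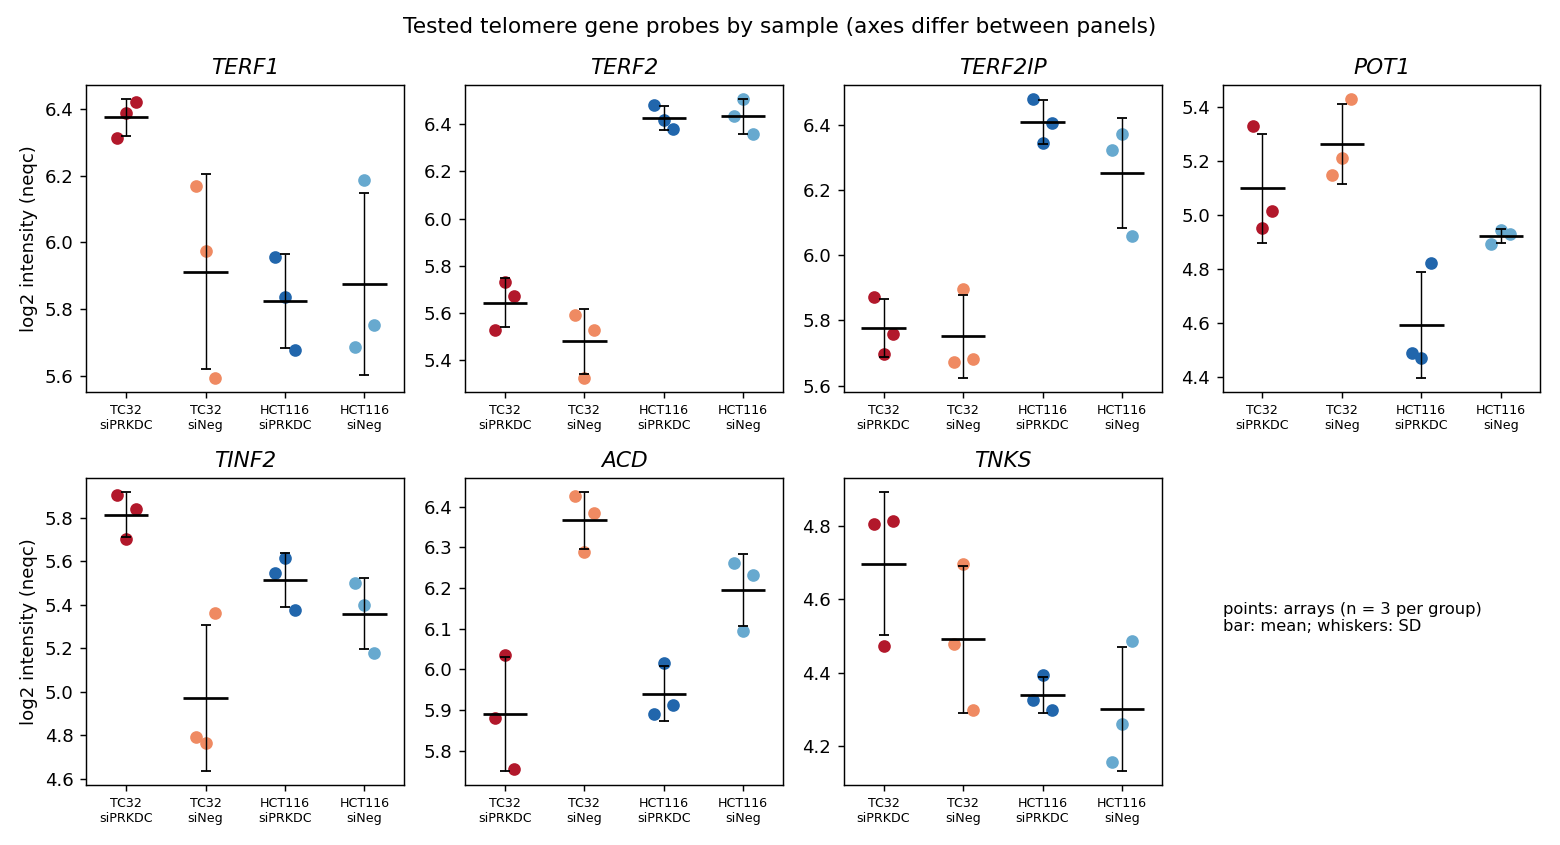
Normalized log2 intensity of the 7 tested telomere gene probes in the 4 groups, with 1 point per array, the mean as a bar and the SD as whiskers (n = 3 per group, axes differ between panels). In TC32 the siPRKDC points of TINF2 and TERF1 lie above the siNeg points and those of ACD below them, while TERF2 and TERF2IP separate HCT116 from TC32.

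TINF2 and ACD are the 2 genes whose change in TC32 held in every alternative, so the sequence just upstream of each is shown. Of the 10 genes, 7 had an entry in the RefSeq promoter table (GRCh38.p14). Each sequence is the 250 bases before the transcription start, read on the gene's own strand, and TINF2 has 2 starts in the table, of which the more upstream one is shown. Capitals mark matches on either strand to the GC box (GGGCGG), the CCAAT box (CCAAT), the ETS core (CCGGAA) and the E-box (CACGTG).
TINF2, chr14:24242675-24242924, minus strand: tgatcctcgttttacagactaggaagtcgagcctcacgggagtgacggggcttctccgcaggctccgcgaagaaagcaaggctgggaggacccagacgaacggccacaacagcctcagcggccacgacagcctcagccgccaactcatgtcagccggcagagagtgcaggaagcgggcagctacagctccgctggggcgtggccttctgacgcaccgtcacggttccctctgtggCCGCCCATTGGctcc
ACD, chr16:67660261-67660510, minus strand: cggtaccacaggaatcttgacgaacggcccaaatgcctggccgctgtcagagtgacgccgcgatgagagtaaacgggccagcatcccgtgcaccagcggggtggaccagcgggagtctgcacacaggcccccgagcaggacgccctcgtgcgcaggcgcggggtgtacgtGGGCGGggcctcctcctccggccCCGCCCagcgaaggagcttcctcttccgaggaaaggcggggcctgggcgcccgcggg
The TINF2 stretch held 1 GC box match and 1 CCAAT box match, which adjoin without overlap just before the start. The ACD stretch held 2 GC box matches and no CCAAT box. Neither held the ETS core or the E-box. Among all 35116 promoters of the same length, 42.6% held the GC box, 32.0% the CCAAT box, 14.5% the ETS core and 6.34% the E-box, so these matches are common. They describe the letters only.

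In HCT116, the comparison asks what the same siRNA did in the colorectal line. None of the telomere gene probes passed there: 0 of 7 were called by limma, where 14.8% of all tested probes were (7.41% up and 7.42% down). The smallest unadjusted limma p-values of the 7 were those of POT1 (0.00995) and ACD (0.0152). They ranked only 2692 and 3080 among all 16555 tested probes. For both genes the siPRKDC arrays lay below the siNeg arrays without overlap. Groups without overlap in either direction made up 32.5% of all probes. The median log2 change of the 7 probes was -0.01 and that of all tested probes 0.00.

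The detected probe of POT1, which encodes the single-strand binding protein, read 77.5, 77.5 and 86.7 in HCT116 with siPRKDC, against 88.6, 87.5 and 88.8 in HCT116 with siNeg. Replicates 1 and 2 of siPRKDC were low and replicate 3 was close to the siNeg arrays, whose values were nearly equal. The log2 intensity was 4.59 ± 0.20 with siPRKDC and 4.92 ± 0.03 with siNeg (SD, n = 3 each), a log2 change of -0.33 (SE 0.12, limma adjusted p = 0.0612). It was called in 6 of 23 alternatives, with adjusted p-values between 0.023 and 0.213. Intensities of 77.5 are within a few units of the lowest detected intensity of the HCT116 siPRKDC arrays, which was between 75.2 and 76.9, and the other 2 POT1 probes were detected on 0 of 12 arrays.

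ACD read 114.9, 121.4 and 121.2 in HCT116 with siPRKDC, against 144.0, 126.4 and 137.8 in HCT116 with siNeg. The log2 intensity was 5.94 ± 0.07 with siPRKDC and 6.20 ± 0.09 with siNeg (SD, n = 3 each), a log2 change of -0.26 (SE 0.10, limma adjusted p = 0.0815), called in 3 of 24 alternatives. TINF2 read 102.6, 105.9 and 101.9 in HCT116 with siPRKDC and 107.6, 99.4 and 95.5 in HCT116 with siNeg, and these overlap (0.15, 95% confidence interval -0.12 to 0.43, limma adjusted p = 0.502).

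TERF1 read 117.5, 113.8 and 112.5 in HCT116 with siPRKDC and 114.5, 131.1 and 115.0 in HCT116 with siNeg (log2 change -0.05, interval -0.33 to 0.23, limma adjusted p = 0.864). TERF2 and TERF2IP had log2 changes of -0.01 (limma adjusted p = 0.977) and 0.16 (0.354). TNKS had 0.04 (0.884) and was detected on 1 of 3 arrays with each siRNA.

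**Figure D2:**
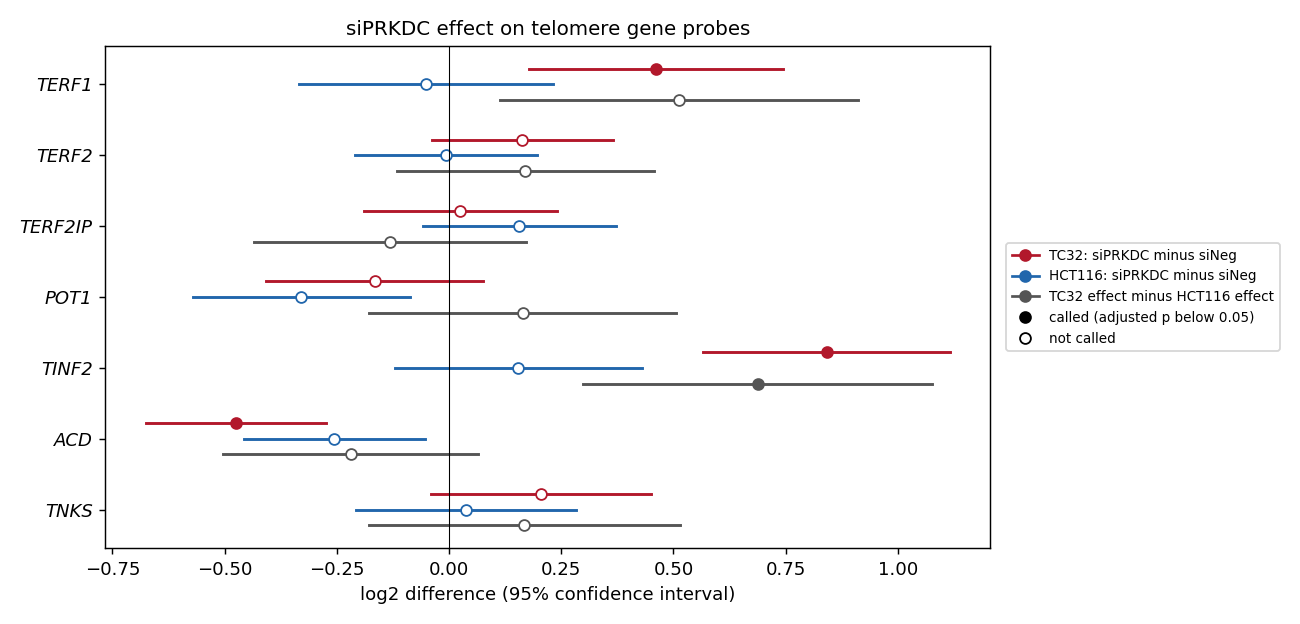
Log2 difference with its 95% confidence interval for the 7 tested probes, for siPRKDC minus siNeg in TC32 and in HCT116 and for the TC32 effect minus the HCT116 effect, with filled points where the adjusted p was below 0.05. TINF2 is the only probe filled for the difference between lines, at 0.69, and the intervals of ACD lie below 0 in both lines.

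The effects of the lines were then set against each other. The TINF2 change differed between the lines, at 0.84 in TC32 and 0.15 in HCT116, a difference of 0.69 on the log2 scale (SE 0.19, limma adjusted p = 0.00903). It was 1 of 7 probes called for this difference, where 26.9% of all tested probes were called, 13.6% up and 13.3% down. The call held in 21 of 22 alternatives and was lost without the filter on dim probes (limma adjusted p = 0.0517), and the difference was 0.29 without background correction. For TERF1 the difference was 0.51 (SE 0.19, limma adjusted p = 0.0528), which was called in 9 of 22 alternatives. For ACD it was -0.22 (95% confidence interval -0.50 to 0.07, limma adjusted p = 0.252), so a larger fall of ACD in TC32 than in HCT116 was not shown, and for POT1 it was 0.16 (interval -0.18 to 0.51, limma adjusted p = 0.495).

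Among the 7 tested probes, those of the TRF2 and RAP1 genes differed most between the lines under siNeg, although most probes of the array differed there. TERF2, whose protein holds the chromosome end in its looped form, and TERF2IP, whose protein binds TRF2, were both lower in TC32 than in HCT116 under siNeg. In all, 4 of 7 probes were called in this comparison, 3 lower and 1 higher in TC32, where 62.0% of all tested probes were called, 32.4% lower and 29.5% higher. The lines' values did not overlap for 4 of 7 probes, against 65.4% of all probes. This comparison uses the same siNeg samples as the siRNA comparisons above.

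TERF2 intensities were 101.3, 91.6 and 97.0 in TC32 with siNeg, against 155.9, 150.8 and 146.0 in HCT116 with siNeg. The log2 difference was -0.95, or 1.94-fold lower in TC32 (SE 0.10, limma adjusted p = 2.05e-08). TERF2IP intensities were 104.3, 108.4 and 102.2 in TC32 with siNeg, against 148.1, 141.6 and 128.8 in HCT116 with siNeg, with a log2 difference of -0.50, or 1.42-fold lower in TC32 (SE 0.10, limma adjusted p = 2.39e-04). Both were called in 21 of 21 alternatives, and no array of one line overlapped the other. The siPRKDC arrays kept this order, with TERF2 at 5.64 ± 0.10 in TC32 and 6.43 ± 0.05 in HCT116 on the log2 scale and TERF2IP at 5.78 ± 0.09 in TC32 and 6.41 ± 0.07 in HCT116 (SD, n = 3 each).

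TINF2 was lower in TC32 under siNeg by a log2 difference of -0.39 (SE 0.13, limma adjusted p = 0.0152), although siNeg replicate 3 of TC32 overlapped HCT116 on the log2 scale. This call was lost without TC32 siNeg replicate 1 (adjusted p = 0.0859 by limma), TC32 siNeg replicate 2 (0.0942) or HCT116 siNeg replicate 1 (0.0784), and without the filter on dim probes (0.0732). With siPRKDC, TINF2 was at 5.81 ± 0.10 in TC32 and at 5.51 ± 0.12 in HCT116 (SD, n = 3 each), an order opposite to that under siNeg. POT1 was higher in TC32 under siNeg by 0.34 (SE 0.12, limma adjusted p = 0.0147), a call lost with median scaling (limma adjusted p = 0.23), which also moved the median of all tested probes to -0.17 in this comparison. It was lost as well without TC32 siNeg replicate 3 (limma adjusted p = 0.0836).

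ACD was 0.17 higher in TC32 under siNeg (limma adjusted p = 0.132), TERF1 0.04 higher (0.827) and TNKS 0.19 higher (0.168), and none of these passed. Over the 4 groups, the log2 level of ACD was lowest with siPRKDC, at 5.89 in TC32 and 5.94 in HCT116, and higher with siNeg, at 6.37 in TC32 and 6.20 in HCT116. TERF1 was highest in TC32 with siPRKDC, at 6.37, while TC32 with siNeg, HCT116 with siPRKDC and HCT116 with siNeg lay at 5.91, 5.82 and 5.88, closer together than the SDs of 0.29, 0.14 and 0.27.

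The dim members could not be followed. TERT, which encodes the reverse transcriptase of telomerase, was detected by neither of its 2 probes on any of 12 arrays, with intensities of 64.5 to 75.9 in TC32 and 69.6 to 73.7 in HCT116. These are near the array medians of 72.4 to 74.6, so a change in TERT was not detectable on these arrays. RTEL1 encodes a helicase that unwinds telomere loops, and its 3 probes were detected on 1, 2 and 8 of 12 arrays. The last of them was seen on 2 of 3 arrays in every group, with intensities of 78.9, 79.4 and 76.4 in TC32 with siPRKDC and 81.7, 74.4 and 76.6 in TC32 with siNeg. TNKS2, which encodes tankyrase 2, was detected on 2 of 12 arrays, both TC32 with siNeg, where it read 78.3, 79.0 and 68.8, against 72.0, 72.4 and 75.0 in TC32 with siPRKDC. With no filter on dim probes, 0 of these 10 probes were called by limma in any comparison. In this setting 11.7% of all 47322 probes were called in TC32 and 4.26% in HCT116. For the difference of effects 7.81% were called, and between lines under siNeg 20.5%. The lowest unadjusted limma p-values of the 10 probes were 0.0284 for TNKS2 between lines under siNeg and 0.0452 for 1 RTEL1 probe in TC32.

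**Figure D3:**
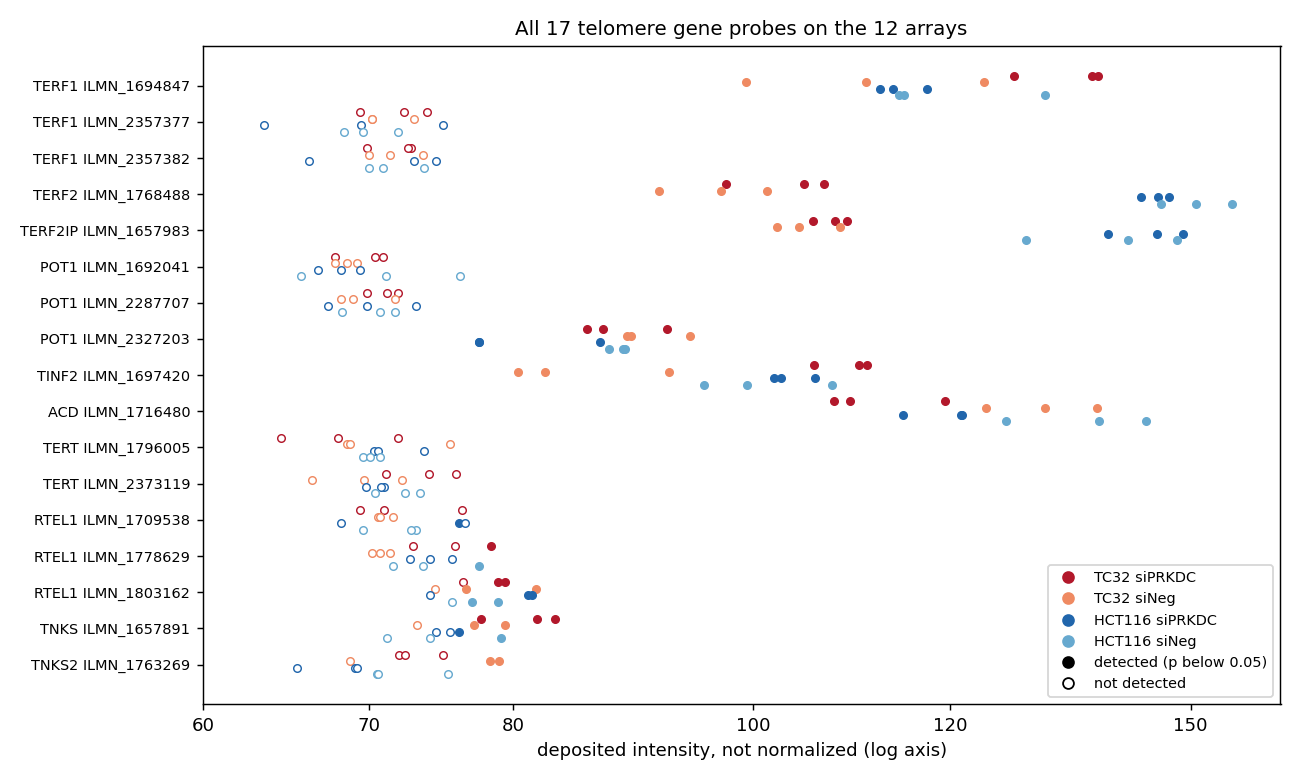
Deposited intensity, not normalized and on a log axis, of all 17 telomere gene probes on the 12 arrays, filled where the detection p was below 0.05 and coloured by group. The TERT probes lie between 64.5 and 75.9 with open points only, while TERF2 and TERF2IP reach 155.9 and 149.0 in HCT116.

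The other genes that work at telomeres were counted from 5 lists of 42 genes in all, each gene by its brightest tested probe. Over all 10386 genes with a tested probe, taken the same way, 41.4% were called in TC32, 17% in HCT116, 30.1% for the difference of effects and 65.3% between the lines under siNeg. Of 11 genes of the telomerase particle and its assembly, 4 rose and 1 fell in TC32, and 1 rose and 2 fell in HCT116, so 5 of 11 and 3 of 11 were called, against 41.4% and 17% of all genes. In TC32 the rises were PINX1, a telomerase inhibitor (0.58, limma adjusted p = 4.19e-04), DKC1 (0.32, 0.00738) and GAR1 (0.31, 0.00908), both subunits of the box H/ACA particle that telomerase shares, and TERC, the RNA template of telomerase. TERC was detected on 2 of 3 arrays in TC32 with siPRKDC and on 0 of 3 in TC32 with siNeg, so its rise there has only a bound, at least 1.13-fold (limma adjusted p = 0.019; normalized log2 means 4.58 and 4.23). In HCT116, where all arrays detected it, TERC rose by 0.91 (limma adjusted p = 8.6e-06). In HCT116, WRAP53, which carries telomerase to Cajal bodies (-0.48, limma adjusted p = 0.00323), and PARN, a nuclease that matures TERC (-0.41, 0.0034), fell. The gene that fell in TC32 was RUVBL2, an ATPase of telomerase assembly (-0.28, limma adjusted p = 0.0374). Under siNeg, 7 of the 11 were lower and 1 higher in TC32 than in HCT116, where 65.3% of all genes were called. The list medians were 0.15 in TC32 and -0.08 in HCT116, against 0.01 and 0.00 for all tested probes.

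The CST complex and DNA polymerase alpha-primase refill the telomere's C-rich strand. Of 5 genes tested, 1 rose and 2 fell in TC32, where 41.4% of all genes were called, and 3 fell in HCT116, where 17% were. POLA1, the catalytic subunit of the polymerase, rose by 0.72 in TC32 (limma adjusted p = 2.55e-06) and fell by 0.36 in HCT116 (0.0093), a difference of 1.08 between lines (2.84e-06). PRIM1, the primase, fell in both lines, by 0.36 in TC32 (limma adjusted p = 0.00221) and by 0.43 in HCT116 (0.0014), and POLA2 fell by 0.45 in HCT116 (0.00989). STN1 of the CST complex fell by 0.65 in TC32 (limma adjusted p = 9.53e-05), but its other tested probe changed by 0.11 (0.489). The list medians were -0.22 in TC32 and -0.36 in HCT116.

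Among nucleases, helicases and the MRN complex, 4 of 9 rose and 1 fell in TC32, against 41.4% of all genes called, while 1 rose and 4 fell in HCT116, against 17%. NBN of the MRN complex rose in both lines, by 0.42 in TC32 (limma adjusted p = 0.00146) and by 0.33 in HCT116 (0.0209). MRE11 of the same complex was the gene that fell in TC32 (-0.29, limma adjusted p = 0.0267). Its other tested probes were not called there, at 0.235 (limma adjusted p = 0.171) and -0.224 (0.121). SLX4 rose by 0.31 in TC32 (limma adjusted p = 0.0156). The helicase RECQL4 rose by 0.50 in TC32 (limma adjusted p = 0.00211) and fell by 0.36 in HCT116 (0.0466). FEN1, a flap endonuclease, rose by 0.27 in TC32 (limma adjusted p = 0.0422) and fell by 0.53 in HCT116 (0.00103). Its other tested probe was not called in TC32, at 0.216 (limma adjusted p = 0.0837), and fell in HCT116, by 0.477 (0.0015). In HCT116 the exonuclease EXO1 fell by 0.82 (limma adjusted p = 6.28e-06) and the helicase BLM by 0.77 (4.51e-05). In TC32 the brightest EXO1 probe was not called, at 0.176 (limma adjusted p = 0.174), while its other tested probe rose by 0.284 (0.0479). The effects differed between the lines for 4 of 9 genes, against 30.1% of all genes, by 0.99 for EXO1 (limma adjusted p = 1.85e-05), 0.86 for RECQL4 (6.44e-04), 0.83 for BLM (4.05e-04) and 0.80 for FEN1 (2.86e-04). The list medians were 0.18 in TC32 and -0.20 in HCT116.

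Of the DNA-PK subunits, PRKDC alone was called with siPRKDC in either line. The Ku genes XRCC5 and XRCC6 had log2 changes of 0.24 (limma adjusted p = 0.108) and 0.11 (0.398) in TC32 and of 0.20 (0.266) and -0.08 (0.658) in HCT116. Under siNeg the brightest probe of each of the 3 subunits was lower in TC32 than in HCT116, where 65.3% of all genes were called. The log2 difference was -1.04 for XRCC6 (limma adjusted p = 2.53e-09), -0.34 for XRCC5 (0.0133) and -0.55 for PRKDC (0.00187). The other 2 tested PRKDC probes were not called between lines and lay at 0.17 (limma adjusted p = 0.194) and 0.12 (0.314). Among 7 tested genes of telomere chromatin and repeat binding, 1 rose and 2 fell in TC32, against 41.4% of all genes called. In HCT116 0 were called, against 17%, and the smallest unadjusted p by limma was that of HMBOX1 (0.0215). The other tested probe of RIF1, a telomere-associated protein, was called there, at -0.39 (limma adjusted p = 0.0405), while its brightest probe was at -0.05 (0.814). HMBOX1, which encodes a protein that binds the telomere repeat, fell by 0.66 in TC32 (limma adjusted p = 5.55e-05), also on its other probe. ZBTB48, which encodes another repeat-binding protein, rose there by 0.44 (limma adjusted p = 0.00428). The list medians were 0.02 in TC32 and 0.00 in HCT116.

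**Figure D4:**
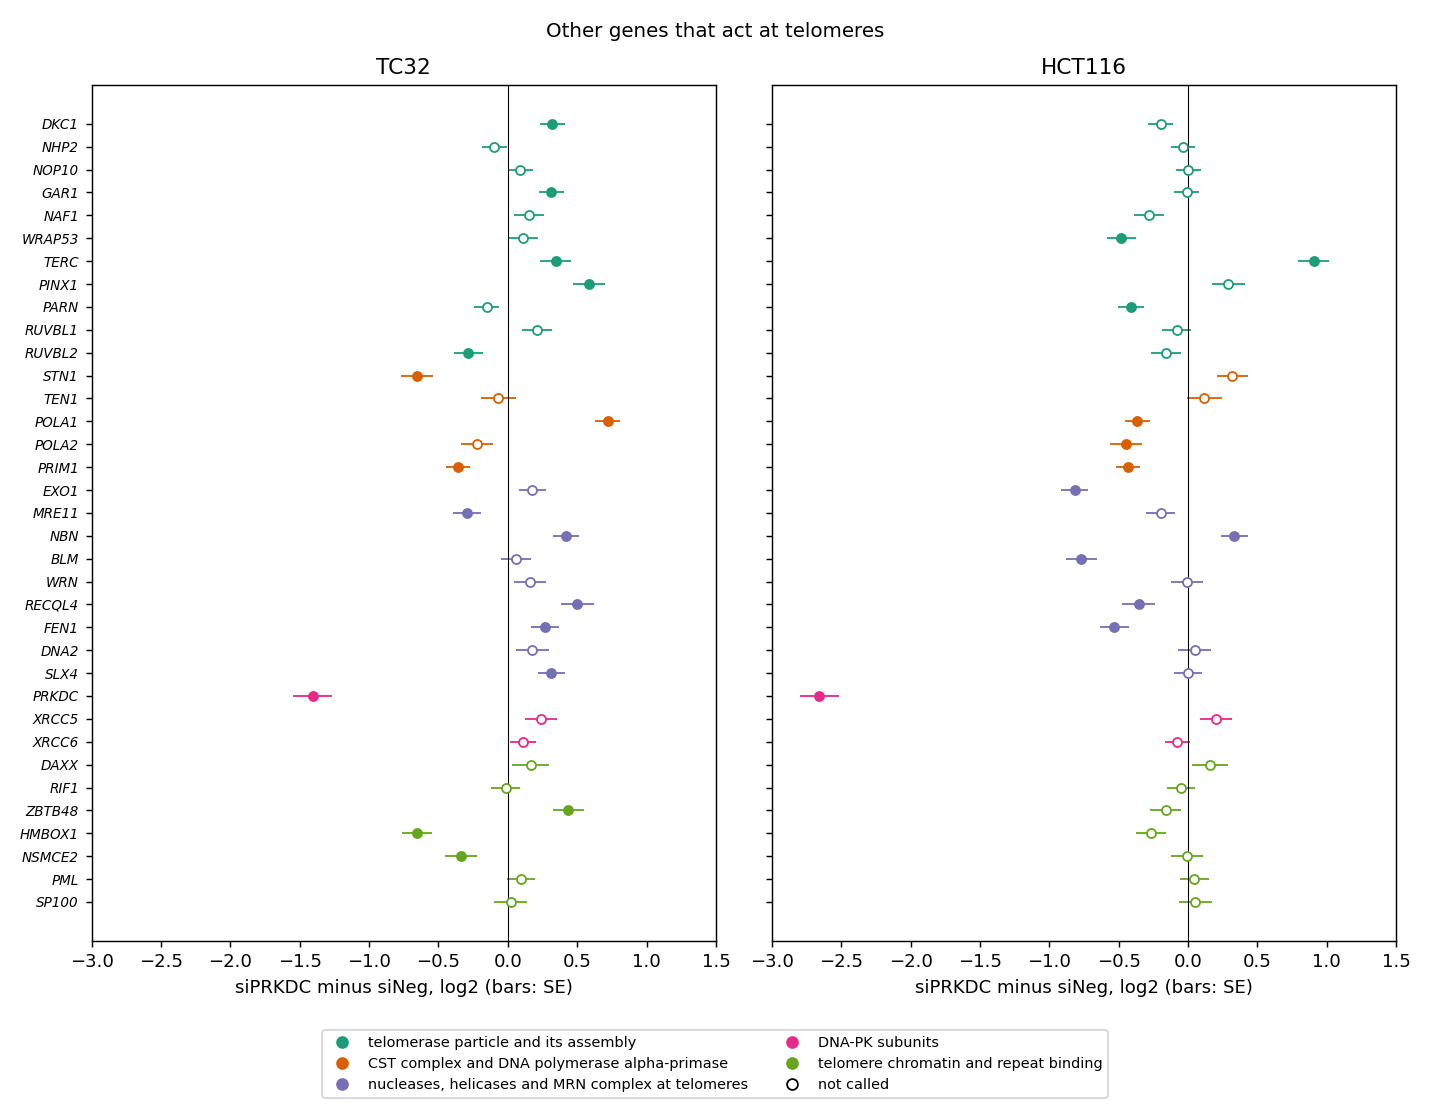
Log2 change with its SE (siPRKDC minus siNeg) of the tested genes of the 5 other telomere lists in TC32 and in HCT116, coloured by list, with filled points where the adjusted p was below 0.05. PRKDC stands lowest in both lines, POLA1 lies above 0 in TC32 and below 0 in HCT116, and TERC, drawn in TC32 at its fitted value, lies above 0 in both.

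For the 3 members called with siPRKDC in TC32, the genes of most similar pattern were listed by Pearson correlation over the 12 arrays, which form 4 groups and share lines and treatments. For TINF2 they were EEF1B2, MATN2 and DGCR6 (r of 0.95, 0.95 and 0.94). For ACD they were PIR, DHPS and MND1 (r of 0.96, 0.95 and 0.95), and for TERF1 BSG, ADARB1 and CLPTM1 (r of 0.94, 0.90 and 0.89). These correlations describe the arrays and carry no test.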

How the data were processed

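Biotinylated cRNA was hybridized to HumanHT-12 v4 arrays, per the labels. The deposited intensity values are linear and neither background-corrected nor normalized, and each has a detection p-value, per the file headers. The authors also deposited log2 values. Their sorted values differed by at most 0.01 within a line, and each ranked best with its own sample's intensity in 12 of 12 samples. GenomeStudio, R 3.0.2 and lumi are named in the submitters' processing notes; no genome build is given in the sources used here.

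The intensities were corrected and quantile normalized with neqc (offset 16) in limma 3.58.1 under R 4.3.3, giving log2 values. The filter kept probes detected (p below 0.05) on each of the 3 arrays of some group (16555 of 47322). Probe genes came from the platform annotation; 30113 probes had 1 gene, 8 had several and 17201 none, and 30074 matched the RefSeq gene table (GRCh38.p14, names only). All 12 samples were fitted in 1 limma cell-means model (13.1 prior and 8 residual degrees of freedom). Two-sided p-values were Benjamini-Hochberg adjusted over all kept probes within each of 4 comparisons and called below 0.05. An exact permutation test of 3 against 3 cannot go below 0.1 and was not used. The model was tested on simulated data with normal noise and changes set in TC32. It recovered 73.1% of log2 changes of 0.5, 98.5% of those of 1 and 100% of those of 2. Of its 189 calls, 8 were false. No 2 intensity columns were identical. The number of arrays limits the precision.

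The named genes were all members, PRKDC, up to 4 genes per list and line with the smallest p, and the 3 most similar genes. RNA28SN5, RUVBL2, RIF1, and RECQL4 and FEN1 outside this rule, were named besides, after their values were seen. A probe undetected on all arrays of a group was given as a bound: the detected group's mean over, per array, the higher of the lowest detected signal and its own. Members and lists were chosen with earlier results of these data known. Tried were 12 alternatives of processing and each of 12 samples left out. No slide is given in the headers. Probe sequences were not used here.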

Additional observations from a re-analysis of the deposited data

Results flagged for a closer look

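The siPRKDC effect on TINF2 was larger in TC32 than in HCT116 by the test of the difference itself. It was 0.84 in TC32 and 0.15 in HCT116, a difference of 0.69 on the log2 scale (limma adjusted p = 0.00903). In TC32, 3 of 3 siPRKDC arrays lay above all siNeg arrays, and in HCT116 the arrays overlapped. Groups without overlap made up 44.7% of all tested probes in TC32. TINF2 was 1 of 7 telomere probes called for the difference, where 26.9% of all tested probes were called. The adjusted p of the difference lay between 3e-04 and 0.0517 over 22 alternatives.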

How the results depend on the processing

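In TC32, TINF2 stayed up and ACD down in all 24 alternatives run, with log2 changes of 0.33 to 1.04 and of -0.55 to -0.25. The TERF1 log2 change was above 0 in all 24, from 0.24 to 0.59, and was called in 22 of 24. The count of telomere probes called was 2 or 3 when single samples were left out, against 33% to 36.4% of all probes. In HCT116 the count of 0 became 2 with median scaling and with the mean of all kept probes per gene. In these settings 16.3% of all tested probes and 19.3% of all tested genes were called. The HCT116 count became 1 with an offset of 50, with each line normalized and fitted alone and with the brightest probe per gene. The shares of all probes or genes called there were 16.8%, 18.2% and 18.8%. The count was 0 or 1 without single samples, against 10.6% to 14.9% of all probes. The count of 1 for the difference between lines became 2 without background correction, with median scaling and with detection p below 0.01 on all 12 arrays. It was also 2 with trend and robust options, with the brightest probe per gene and with the replicate block. In those settings 27% to 34.7% of all probes or genes were called for the difference. The count for the difference became 0 of 17 probes with no filter on dim probes, where 7.81% of all probes were called. It was 1 or 2 without single samples, against 22.8% to 25.9% of all probes. The additional probe in the count of 2 was TERF1 in each case. The count of 4 between lines under siNeg was 3 or 4 without single samples, against 56.1% to 61.1% of all probes. The cause of these moves was not tested. Without the filter, the model was fitted on all 47322 probes and the p-values were adjusted over all of them. No called probe changed direction in any alternative. Between lines under siNeg, 10256 of 16555 tested probes were called (62%). When only the 9439 probes with detection p below 0.01 on all 12 arrays were tested, 6244 were called (66.2%).

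Replicate numbers are shared by the groups. To look for pairing, the group mean of each probe was subtracted, and the remaining deviations of siPRKDC and siNeg samples were correlated within each line. The deviations of same-numbered samples correlated by only 0.01, 0.04 and 0.10 in TC32 and 0.00, 0.06 and 0.04 in HCT116. Those of differently numbered samples correlated by -0.08 to 0.04 in TC32 and by -0.05 to 0.01 in HCT116. Not every sample's deviations correlated best with those of its own number. These weak correlations cannot decide whether same-numbered samples share a culture or batch, which the labels do not say. With the replicate block, 6366 probes were called in TC32, against 6265 without it, and 2484 in HCT116, against 2454. The telomere calls within lines were as many as without the replicate block, 3 and 0. At a detection p below 0.01, POT1's detected probe was seen on 10 of 12 arrays, TNKS on 4 in place of 7, and the brightest RTEL1 probe on 5 in place of 8. Most telomere probes lay little above background, which limits what could be seen. The slide as a block was not run, since no slide is given.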
